A study of Mus musculus with 6 samples.

Results

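The 3 vehicle-treated mammary tumours of the series were described on their own, as a baseline of which genes a tumour of this kind expressed and how far such tumours differed from each other. They were chosen by their labels, as the samples titled as PyMT controls and labelled vehicle, and are 3 of the 6 samples in the series. All 6 came from MMTV-PyMT mice, in which the mouse mammary tumour virus promoter drives the polyoma virus middle T antigen in mammary epithelium. Vehicle was taken by mouth from Medigel cups from 6 weeks of age, and the other 3 samples, from mice given the liver X receptor agonist DMHCA in the same way, were not used here. Total RNA was extracted from the tumours on RNeasy columns and made into standard RNA-seq libraries by a commercial provider. The labels do not say whether the 3 tumours, here called tumours 1, 2 and 3 after their replicate numbers, came from separate mice, so the spread given below is that between 3 samples. With a single group there was nothing to test, and all values are descriptions.

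Middle T antigen is a membrane-bound scaffold that recruits Src family kinases, PI3-kinase, Shc and protein phosphatase 2A, and so switches on growth signals in the luminal epithelium of the gland. Luminal epithelium is made of hormone-sensing cells, which carry oestrogen and progesterone receptors, and of alveolar cells and their progenitors, which turn on Elf5 and make milk proteins under prolactin. The tumours of this model begin close to the luminal type and are known to lose hormone receptors as they progress.

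Levels are given as TPM, a transcript abundance scale on which the length of each gene's transcripts has been divided out and all samples sum to the same total. The libraries were of like depth, with 42595799, 39977825 and 40680106 reads assigned to genes (expected counts). For a gene with 0 reads, a true mean of up to about 3 reads remains possible at 95% confidence. At the lowest depth 3 reads are 0.0750 CPM (counts scaled to the same total in each library). A TPM of at least 1 in every tumour was reached by 12746 of 55487 gene rows, among them 11651 of 21961 nuclear protein-coding genes, while 8960 protein-coding genes stayed under 1 in all 3. Tumour 2 held far more short noncoding RNA and ribosomal RNA than tumours 1 and 3: together these classes took 16.1% of its TPM against 0.454% and 0.504%, with nuclear protein-coding genes at 66.3% against 80.8% and 75.0%. The nuclear ribosomal RNA row alone held 2219598 reads in tumour 2 against 62686 and 100458. This pushed the median nuclear protein-coding gene of tumour 2 down by 0.29 on the log2 scale against the mean of tumours 1 and 3. Where it matters, values were therefore also read as TPM rescaled over nuclear protein-coding genes alone, called the nuclear scale below, on which the same median was -0.07. In deposited TPM, 48.9%, 14.9% and 36.1% of the 11651 genes were highest in tumours 1, 2 and 3 and 16.6%, 61.6% and 21.9% were lowest there. On the nuclear scale these shares were 33.1%, 30.3% and 36.6% for the highest and 32.4%, 40.9% and 26.7% for the lowest, and gene lists below are read against them.

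The most abundant messages came from mitochondria, from the milk protein kappa-casein, from iron and lipocalin carriers and from the ribosome. Mitochondrially encoded proteins took 9.38%, 9.26% and 13.7% of TPM in tumours 1, 2 and 3, and the cytosolic ribosomal protein genes 18.0%, 16.1% and 16.4%. The 20 most abundant rows held 22.5% ± 2.83 of TPM (SD, n = 3), of which 7 were mitochondrially encoded, 4 were nuclear copies of mitochondrial genes, 3 were short noncoding or ribosomal RNA rows and 6 were nuclear protein-coding genes.

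Csn3, kappa-casein, the protein that keeps milk micelles in suspension, was the most abundant nuclear protein-coding gene by its mean and in tumours 2 and 3, at 16364, 17525 and 23025 TPM. Its level was of the same order in all 3 tumours, with a highest-to-lowest ratio of 1.41. Trf, the iron carrier transferrin, stood at 16592, 6049 and 11939.8 TPM, and Lcn2, the iron-siderophore binding lipocalin 2, at 8513, 3386 and 7431 TPM. Both carriers were lowest in tumour 2 and highest in tumour 1. Wfdc18, a secreted protein with a protease inhibitor fold that is known from the mammary gland, was lowest in tumour 1 (1603, 3625 and 4320 TPM). Of the 25 most abundant nuclear protein-coding genes, 19 encoded ribosomal proteins, led by Rpl13a (11411, 13548 and 9709 TPM) and Rplp1 (6764, 5183 and 5875 TPM). The remaining 2 were the translation elongation factor Eef1a1, the evenest of the 25 at 5005, 5248 and 5215 TPM, and Tpt1, a growth-related protein bound to translation, at 4579, 4171 and 4746 TPM. Ribosomal protein genes have many processed pseudogenes, so their levels depend on how reads were shared among copies. Of 83 ribosomal protein genes at 1 TPM or more in every tumour, 1 varied over 4-fold, Rpl38, which stood at 8195 TPM in tumour 1 against 1926 and 2913 TPM.

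**Figure D1:**
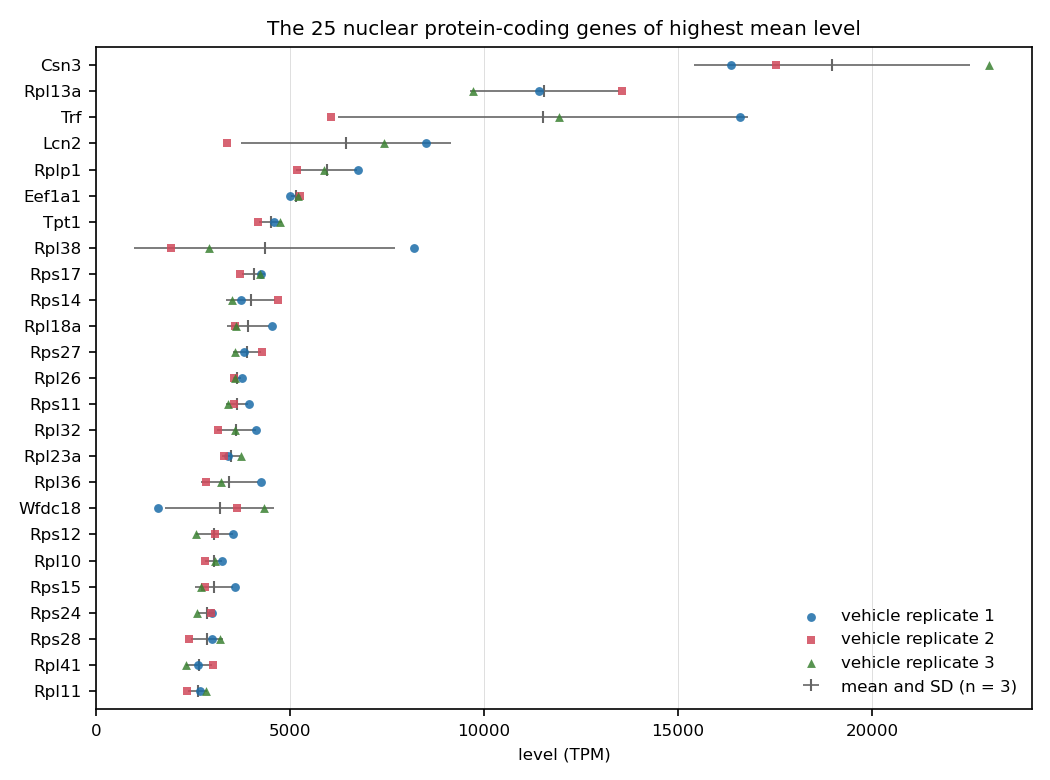
Level in TPM of the 25 nuclear protein-coding genes with the highest mean, as points for the 3 vehicle tumours with a tick for the mean and a bar for the SD (n = 3). Csn3 lies to the right of all others in tumours 2 and 3, Eef1a1 is within 1.05-fold across tumours, and Trf, Csn3, Rpl38 and Lcn2 have the widest bars.

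Mitochondrial levels need care at both ends. The row with the highest mean of all was mt-Atp8, a subunit of ATP synthase, at 26834, 31998 and 41635 TPM, but it rests on 11377, 19939 and 26420 reads over an effective length of only 11.03 to 17 bases, out of an annotated length of 204 bases. The neighbouring subunit mt-Atp6, which is encoded on the same RNA, stood at 3098, 3043 and 3057 TPM. Among the long mitochondrial genes, mt-Co1, the catalytic subunit of cytochrome oxidase, led at 15752, 14103 and 25659 TPM, and mt-Cytb followed at 9718, 8940 and 16362 TPM. Both were highest in tumour 3. A stretch of chromosome 1, chr1:24611535-24616197, carries 7 pseudogene rows that match mitochondrial genes at 99.7% identity or more over nearly their whole length. They took 4.81%, 4.49% and 6.22% of TPM; Gm28661, identical to mt-Co2 over 681 bases, stood at 14847, 11573 and 20926 TPM beside 6700, 5220 and 7285 TPM for mt-Co2 itself. Reads from such copies and from the mitochondrion cannot be told apart, and the levels of mt-Co2, mt-Co3, mt-Atp6, mt-Nd3, mt-Nd4l, mt-Nd4 and mt-Co1 are uncertain to that extent.

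The markers of luminal epithelium were present in all tumours, which were labelled as mammary. Of 19 luminal genes 18 were at 10 TPM or more in every tumour, and their summed level was 4942, 4387 and 4770 TPM. The simple-epithelium keratin pair stood at 799, 871 and 669.6 TPM for Krt8 and 855, 741 and 893 TPM for Krt18. Epcam, the epithelial adhesion molecule, lay at 646, 537 and 686 TPM, and the protease inhibitor Spint2 at 984, 689 and 948 TPM. For each of these genes the 3 values span less than 1.5-fold. Krt19, another luminal keratin, varied more, at 520 TPM in tumour 2 against 193 and 143 TPM. Other luminal genes did too, such as Cldn3 at 651, 354 and 575 TPM and Ehf at 119, 130 and 266 TPM. On TPM plus 1, the median highest-to-lowest ratio was 1.67 for the 18 luminal genes and 1.45 for all 11651 genes. Gata3, the main luminal transcription factor, was at 116, 61.0 and 80.8 TPM, but Foxa1, which opens chromatin for hormone receptors, stayed under 1 in all tumours (0.21, 0.21 and 0.44 TPM).

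Most hormone-sensing markers were low, and the 8 genes of the list summed to 51.9, 122 and 55.1 TPM. Esr1, the oestrogen receptor, had 2.10, 1.79 and 0.83 TPM and Pgr, the progesterone receptor, 0.10, 0.12 and 0.38 TPM. The paracrine mediators Wnt4 (0.50, 0.10 and 0.27 TPM) and Tnfsf11 (0.05, 0.05 and 0 TPM) were near 0 too. Prlr, the prolactin receptor, was at 13.6, 10.6 and 15.4 TPM. Only 2 of the 8 genes in the list, Prlr and the surface antigen Ly6a, reached 1 TPM in every tumour. Pgr, Wnt4 and Tnfsf11 were under 1 TPM in all 3, and Esr1, Areg and Cited1 reached it in some tumours only.

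Luminal progenitor and alveolar markers were high, with 9 of 10 at 10 TPM or more in every tumour and a summed level of 26649, 11598 and 21125 TPM that Trf and Lcn2 dominate. Elf5, the transcription factor of the alveolar lineage, was at 212, 358 and 399 TPM. Kit, the stem cell factor receptor of luminal progenitors, had 116, 75.8 and 227 TPM. Sox10, a neural crest factor that mammary progenitors also use, stood at 463, 195 and 392 TPM. Aldh1a3 was the list's lowest member, at 4.85, 21.1 and 13.0 TPM. Kit is also a mast cell marker, and the mast cell protease Cpa3 (0.09, 0.98 and 0.12 TPM) and receptor chain Ms4a2 (0, 0.02 and 0 TPM) were at or near 0 beside it.

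Basal and myoepithelial markers were low and uneven, with a summed level of 178.7, 179.6 and 60.2 TPM. Krt14, a basal keratin, had 67.5, 63.6 and 19.5 TPM and Krt5 had 15.8, 27.6 and 5.39 TPM, both lowest in tumour 3. Trp63, the basal transcription factor, was at 9.91, 5.74 and 3.07 TPM. Myh11 and Col17a1, which mark contractile and anchored basal cells, stayed under 1 TPM throughout.

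Of the 13 genes in the milk list, those named here were either even in deposited TPM or stood out in tumour 2. Beside Csn3, the even ones were Lalba, alpha-lactalbumin, the partner of galactosyltransferase in making lactose, at 1212, 1105 and 1186 TPM, and Xdh, a coat protein of the milk fat globule, at 188, 160.1 and 139 TPM. Csn2, beta-casein, was at 199, 1454 and 57.6 TPM. Wap, whey acidic protein, showed the same pattern at 113, 742 and 102.2 TPM. Csn1s1 and Csn1s2a, the alpha-caseins, were at 137, 664 and 181 TPM and at 58.1, 351 and 30.2 TPM. Glycam1, a secreted mucin-like milk protein, was at 8.70, 83.2 and 1.02 TPM. For each of these 5 genes tumour 2 was more than 3-fold above both other tumours, and which of the others came last varied.

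Of 12 milk genes at 1 TPM or more in every tumour, 8 were highest in tumour 2 (10 on the nuclear scale). Over all nuclear protein-coding genes at that level, 14.9% were highest in tumour 2 in deposited TPM and 30.3% on the nuclear scale. The median highest-to-lowest ratio, taken on TPM plus 1 as are all such ratios below, was 2.80 for these 12 genes and 1.45 for all 11651.

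The upstream sequences of the milk genes are shown because 4 of them, Csn1s1, Csn1s2a, Csn2 and Wap, were high together in tumour 2 while Lalba was not. Glycam1, which also stood out in tumour 2, is not among the sequences shown. They are RefSeq sequences of build GRCm38.p6, 5′ to 3′ on the gene's own strand, numbered back from the annotated start; Csn3 is named only. Capitals mark TTCNNNGAA, the core recognised by STAT5, the transcription factor through which prolactin acts on milk genes. Where an annotated exon reaches into the window a shorter stretch is printed.
Csn1s1, chr5:87666058-87666207, plus strand: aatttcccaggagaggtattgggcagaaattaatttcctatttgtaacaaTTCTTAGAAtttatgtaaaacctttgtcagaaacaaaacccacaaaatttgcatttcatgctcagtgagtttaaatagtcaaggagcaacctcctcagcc
Csn1s2a, chr5:87774300-87774449, plus strand: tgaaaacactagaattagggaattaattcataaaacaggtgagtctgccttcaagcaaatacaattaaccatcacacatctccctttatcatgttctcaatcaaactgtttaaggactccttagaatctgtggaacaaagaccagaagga
Csn2, chr5:87699500-87699528, minus strand: tcacgtagacTTCTTGGAAttgaagggac
Wap, chr11:6638650-6638799, minus strand: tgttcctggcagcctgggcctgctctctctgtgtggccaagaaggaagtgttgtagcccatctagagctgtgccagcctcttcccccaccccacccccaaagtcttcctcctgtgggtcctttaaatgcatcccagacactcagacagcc
Lalba, chr15:98482722-98482833, minus strand: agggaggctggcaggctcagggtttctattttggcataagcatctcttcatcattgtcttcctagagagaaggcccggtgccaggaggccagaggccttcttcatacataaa

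In the 150 bases upstream of the start, TTCNNNGAA, which reads the same on both strands, occurs once in Csn1s1, from -100 to -92, and once in Csn2, from -93 to -85. The windows of Csn1s2a, Wap and Lalba do not hold these letters, so genes that were high together in tumour 2 include some with and some without a match. The motif occurs in 4.09% of 32851 RefSeq promoter windows of the same length. The RNA levels of the factors were even, with Stat5a at 37.7, 32.2 and 35.5 TPM and Stat5b at 28.3, 21.5 and 26.4 TPM. RNA levels do not show how active the proteins were, and only 150 bases were searched. The part of STAT5 in the milk values was not tested.

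Connective tissue and fat markers varied most among the lineages. All 13 fibroblast and matrix genes were highest in tumour 2, on either scale, and 12 of 13 were lowest in tumour 3. Over all genes 14.9% were highest in tumour 2 (30.3% on the nuclear scale) and 21.9% were lowest in tumour 3 (26.7%). Their summed level was 1023, 2519.5 and 287 TPM, and their median highest-to-lowest ratio 7.998. Col3a1, a fibrillar collagen, stood at 232, 645 and 52.9 TPM, and Col1a1 at 121, 221 and 22.8 TPM. Sparc, a matrix binding protein, was at 234, 529.6 and 79.5 TPM and Postn, periostin, at 178, 448 and 55.1 TPM. The order was tumour 2, then 1, then 3 in each of these 4 genes. In bulk tissue fewer cells of a type and less RNA per cell cannot be told apart, here and for the lineages below.

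Apart from the Y-linked list, which was near 0, adipocyte genes had the widest range of the lineage lists. Their summed level was 315, 1295 and 70.5 TPM. The 7 of 10 genes that reached 1 TPM in every tumour were all highest in tumour 2. Over all genes 14.9% were highest there (30.3% on the nuclear scale). Fabp4, the fat cell fatty acid carrier, had 133, 533 and 25.4 TPM. Cfd, adipsin, was at 109, 484 and 14.9 TPM and Adipoq, adiponectin, at 7.75, 33.0 and 1.84 TPM. The 5 milk genes that stood out in tumour 2 were high in the tumour whose fat and matrix markers were high; the part of such tissue in the milk values was not tested.

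Macrophage markers were the strongest of the immune lists, with a summed level of 2902, 4004 and 1364 TPM, most of it from Apoe (2265, 2848 and 1040 TPM), a lipid carrier that other cells make as well. The complement genes that tissue macrophages express stood at 123, 197 and 50.7 TPM for C1qa, and C1qb and C1qc followed the same order. Lyz2, lysozyme, had 144, 391 and 65.7 TPM and Csf1r, the receptor of the macrophage growth factor, 16.4, 19.0 and 5.37 TPM. Of 12 genes 10 were highest in tumour 2 (12 on the nuclear scale) and 11 lowest in tumour 3. Over all genes 14.9% were highest in tumour 2 (30.3% on the nuclear scale) and 21.9% were lowest in tumour 3 (26.7%). MHC class II genes, led by the invariant chain Cd74 at 307, 314 and 105 TPM, were also lowest in tumour 3 for 5 of 6.

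Lymphocytes and granulocytes left little RNA. All 5 B cell genes and 6 of 7 cytotoxic genes were under 1 TPM in every tumour, and none of the 9 T cell genes reached 1 TPM in all 3. The T cell receptor constant gene Trbc2 had 2.13, 0.79 and 1.13 TPM and Cd3e had 0.54, 0.19 and 0.26 TPM. Ly6g and Camp, the defining neutrophil genes, were at 0 in all 3, which leaves S100a8 (69.9, 65.7 and 19.1 TPM) as the list's only gene above 10 TPM in every tumour. The plasma cell list was carried by Xbp1 (689, 723 and 946 TPM), a factor of secretory cells in general, with Jchain at 0.27, 0.50 and 0.10 TPM.

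Vessel, muscle and blood markers varied less. The 12 endothelial genes summed to 38.9, 47.0 and 26.6 TPM, with none at 10 TPM in all tumours; Plvap, of fenestrated endothelium, led at 8.56, 7.81 and 5.66 TPM. Skeletal muscle genes summed to 738, 648 and 578 TPM, including fast fibre genes such as Tnnc2 (149, 113 and 92.8 TPM) and Acta1 (104, 101.4 and 96.2 TPM). Of the 11 muscle genes at 1 TPM or more in every tumour, 8 were highest in tumour 1 in deposited TPM. Over all genes 48.9% were highest there. On the nuclear scale 8 were highest in tumour 2 (30.3% of all genes). In tumour 3, 8 were lowest on either scale (21.9% and 26.7% of all genes). Haemoglobin genes summed with Alas2 to 3292, 3208 and 1976 TPM; Hba-a1 had 1812, 1464 and 908 TPM, with its near-identical copy Hba-a2 at 442, 666 and 446 TPM and the split between them uncertain.

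**Figure D2:**
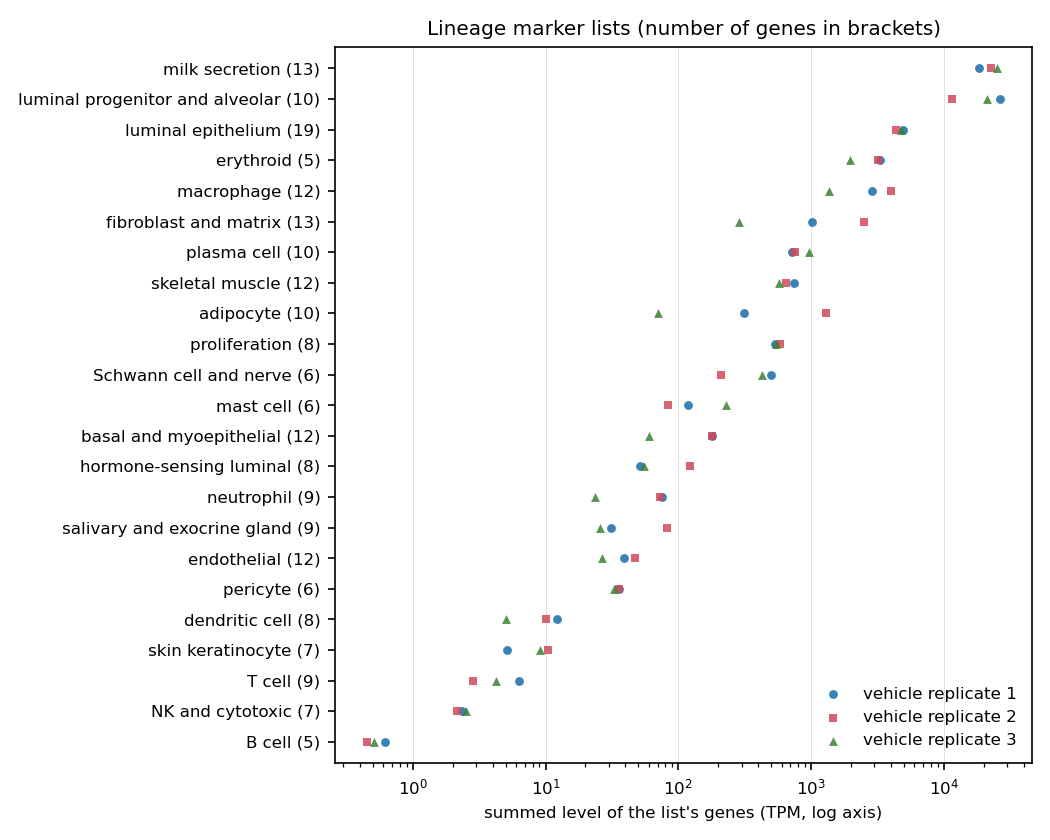
Summed TPM of each lineage marker list except the Y-linked one (log axis) as points for the 3 vehicle tumours, with the number of genes in brackets, ordered by the mean. Milk, progenitor and luminal lists lie highest, B, cytotoxic and T cell lists lowest, and the adipocyte list (70.5 to 1295 TPM) and the fibroblast list (287 to 2519.5 TPM) are the widest.

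The 8 proliferation genes summed to 535, 581 and 544 TPM, and their median highest-to-lowest ratio was 1.21. In deposited TPM 5 of the 8 were highest in tumour 2, against 14.9% of all genes. On the nuclear scale 7 of the 8 were, against 30.3% of all genes, and the sums differed by 1.32-fold. Mki67, the usual proliferation marker, stood at 34.0, 40.5 and 35.5 TPM. Top2a, which untangles DNA in dividing cells, had 61.8, 72.0 and 68.1 TPM, and Cdk1, the mitotic kinase, 86.8, 103 and 83.3 TPM.

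Interferon-stimulated genes varied together in another order. They summed to 705, 185 and 368 TPM, and all 15 were lowest in tumour 2 (14 on the nuclear scale), where 61.6% of all genes were lowest (40.9% on the nuclear scale). Of the 15, 12 were highest in tumour 1 (11 on the nuclear scale). Irf7, the factor that amplifies interferon production, had 149, 28.2 and 70.3 TPM, Isg15, a ubiquitin-like modifier, 98.1, 18.0 and 66.9 TPM and Oasl2 70.5, 8.93 and 24.9 TPM. The median highest-to-lowest ratio was 3.72.

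Genes of hypoxia and glycolysis were abundant, with Aldoa at 2436, 1462 and 2418 TPM and Ldha at 1205, 1313 and 1690 TPM. Vegfa, the vessel growth factor, was at 85.2, 60.6 and 176 TPM and Car9, a carbonic anhydrase of hypoxic cells, at 21.7, 8.63 and 45.4 TPM, both highest in tumour 3. Of the 14 genes, however, 9 were highest in tumour 1 and 4 in tumour 3 (7 and 5 on the nuclear scale). Over all genes 48.9% and 36.1% were highest there (33.1% and 36.6% on the nuclear scale). In tumour 2, where 61.6% of all genes were lowest (40.9% on the nuclear scale), 11 of the 14 were lowest (10 on the nuclear scale). Immediate early genes, which also respond to handling of tissue, summed to 981, 791 and 669 TPM, with Jund, at 457, 349 and 300.3 TPM, the largest and Fos at 32.2, 49.5 and 32.0 TPM.

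Lipid synthesis genes were even as a sum (1654, 1442 and 1431 TPM) and uneven by gene. Srebf1, the factor that turns on fatty acid synthesis, had 739, 292 and 530.4 TPM. Fasn, fatty acid synthase, stood at 205, 172 and 200.3 TPM, within a narrower range than Srebf1. Thrsp, a regulator of fat synthesis in mammary and fat tissue, was highest in tumour 2, at 224, 439 and 158 TPM.

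Choice among related genes was read in 60 families, as the member with the highest TPM; shares within a family do not depend on the scaling of a sample. The same member led in all 3 tumours in 47 families. It held over 50% of the family's TPM in every tumour in 42 families and over 90% in 14.

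In the keratin, claudin, cadherin and actin families the same member led in every tumour. Krt8 held 93.4% ± 1.54 (SD, n = 3) of type II keratin TPM, and Krt18 held 69.3% ± 13.6 of type I keratins, less in tumour 2 (54.1%) where Krt19 was high. Cldn3, a tight junction claudin, held 63.5% ± 9.32 of 16 claudins, and Cdh1, E-cadherin, 93.6% ± 2.92 of the classical cadherins. Actg1 was ahead of Actb in every tumour, at 1759, 1541 and 1597 against 1217, 938 and 834 TPM, 2 cytoplasmic actins that differ by a few residues.

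The families of energy metabolism named here each had the same leader in all tumours. Pkm held 100% of pyruvate kinase TPM, with the liver form Pklr at 0.02, 0 and 0 TPM. Hk1 was ahead of Hk2 in each tumour, at 226, 72.0 and 93.9 against 18.2, 11.7 and 14.3 TPM. Pfkl, the liver-type phosphofructokinase, held 68.5% ± 2.33 and Ldha 90.7% ± 4.26 of their families. Slc2a1 held 70.7% ± 7.69 of 10 glucose transporters, while Slc2a4, the insulin-sensitive transporter of muscle and fat, was at 2.99, 4.61 and 2.63 TPM.

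The liver X, retinoid X and PPAR receptors and the SREBP factors each kept the same leader. Nr1h2, liver X receptor beta, the target class of the agonist used elsewhere in the series, had 149, 76.0 and 132 TPM against 6.30, 6.74 and 6.86 TPM for Nr1h3, liver X receptor alpha, or 94.3% ± 2.15 of the pair. Their partners were Rxrb at 42.5, 23.6 and 33.8 TPM and Rxra at 22.0, 15.2 and 12.5 TPM. Srebf1 held 90.1% ± 0.182 of its pair, the same share to within 0.5 points in tumours whose Srebf1 levels spanned 2.53-fold. Ppard led the PPAR receptors at 14.98, 9.96 and 13.9 TPM.

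Proteins that middle T antigen is known to bind were present as follows. Src led 8 Src family kinases at 42.5, 24.7 and 33.7 TPM; Lyn came second in tumours 1 and 2 (22.6 and 21.9 TPM) and stood behind Yes1 and Fyn in tumour 3 (7.48 against 14.6 and 13.8 TPM). Shc1 held 83.6% ± 7.20 of the Shc adaptors, and Pik3ca led the class I catalytic PI3-kinases at 12.8, 9.57 and 11.7 TPM. The scaffold subunit of protein phosphatase 2A came from Ppp2r1a (90.4% ± 1.21), while its catalytic forms Ppp2cb and Ppp2ca shared the family at 54.2% ± 1.87 for Ppp2cb. Downstream, Akt1 held 67.1% ± 2.76 of the Akt kinases and Stat3 41.0% ± 3.41 of the STAT factors.

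The leader changed between tumours in 13 families. Fabp4 led the fatty acid binding proteins in tumour 2 alone, with Fabp5, at 157, 74.2 and 139.9 TPM, ahead in tumours 1 and 3. Scd1 led Scd2 in tumour 2 alone (94.7, 191 and 139 against 185, 110 and 141 TPM), and in tumour 3 the values were within 3 TPM of each other. In the calcium pumps of the endoplasmic reticulum each tumour had another leader: Atp2a2 in tumour 1 (42.3 TPM), the muscle form Atp2a1 in tumour 2 (50.2 TPM) and Atp2a3 in tumour 3 (101.3 TPM, against 3.48 and 24.2 TPM in tumours 1 and 2). Ccnd1 passed Ccnd3 in tumour 3 alone, at 51.3, 36.2 and 99.8 against 71.9, 64.9 and 84.5 TPM. The histone H3.3 genes H3f3b and H3f3a, which encode the same protein, stood at 2869, 615 and 1095 TPM and at 599, 758 and 936 TPM. H3f3b was thus high in tumour 1 alone, and H3f3a led in tumour 2. Lower in level, the leader also changed among the oestrogen receptors, where all values were at 2.10 TPM or less. The other families in which it changed were the beta tubulins, connexins, monocarboxylate transporters, ErbB receptors, Notch receptors, ferritin chains and peroxiredoxins. By read counts, which are not divided by transcript length, the leader differed from that by TPM in some tumour in 15 of the 60 families. Ccnd1 and H3f3b, for example, led their families by counts in all 3 tumours.

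**Figure D3:**
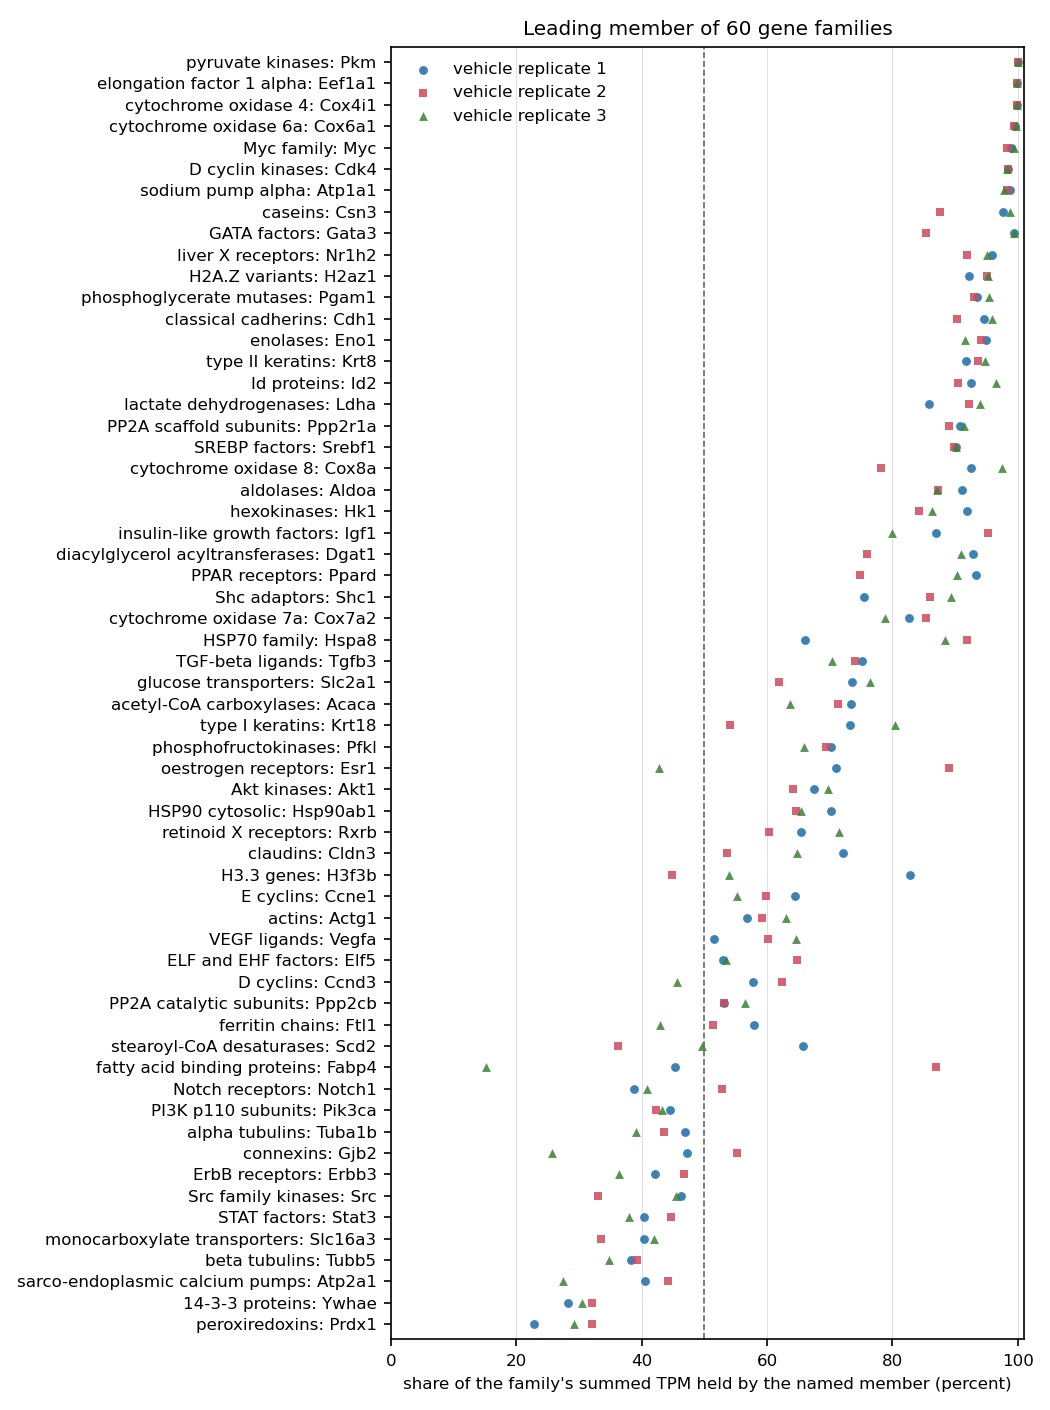
Share of each family's summed TPM held by its member of highest mean level, in percent, as points for the 3 vehicle tumours, with a dashed line at 50%. Metabolic and housekeeping families sit at the upper right, and the widest spread is for Fabp4 (15.2% to 87.0%).

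Transcript choice could be read for genes with exactly 2 annotated transcripts, since the deposited gene length is the mean of the transcript lengths weighted by abundance. Of 673 such genes with a mean of at least 10 TPM, 478 (71.0%) had a transcript that held 90% or more in every tumour, and the median share of the major transcript was 98.0%. Where both transcripts were protein-coding, 166 of 262 genes (63.4%) had such a dominant form. Where a coding transcript led a retained-intron form this held for 142 of 173 (82.1%), and where it led a nonsense-mediated decay form for 26 of 30 (86.7%). In 16 genes the retained-intron form led the coding one, with dominance in 1.

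The most abundant genes of this kind were nearly uniform. Rpl32 gave 99.7% of its transcripts as the 517-base form in every tumour, and Naca, a nascent-chain binding protein, 99.9% as the 885-base form rather than the 6745-base form known from muscle. Igfbp5, a secreted binding protein of insulin-like growth factors, kept 97.5%, 97.6% and 96.4% in its coding form. Plet1, a surface protein of epithelial progenitors, held 94.8%, 95.1% and 94.0% in its longer form. Cfd was an exception among the listed markers, with its 2 coding forms near balance (49.7%, 48.9% and 54.0% for the longer), although its level varied 30.6-fold between tumours. The forms are close in length, at 922 and 871 bases, so their split rests on a small difference.

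The widest differences were at lower levels. Cdkn2c, the cyclin-dependent kinase inhibitor p18, gave 50.9%, 61.6% and 84.9% as its 1106-base transcript, whose start lies 1817 bases from that of the 2471-base form. Ptx3, a secreted pattern recognition protein, gave 88.8%, 67.7% and 61.4% as its retained-intron form, and Ccl9, a chemokine, 95.3%, 78.4% and 57.8% as its coding form. The highest share was in tumour 1 for Ptx3 and Ccl9 and in tumour 3 for Cdkn2c. D930048N14Rik and Prkaa1 were also among the 10 widest, but their transcripts differ by only 16 and 37 bases (3426 and 3410, 4618 and 4655). The major transcript changed between tumours in 18 of the 673 genes, with 8 of these between coding forms; Coa3, an assembly factor of cytochrome oxidase, went from 66.0% and 59.5% in tumours 1 and 3 to 48.3% in tumour 2.

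**Figure D4:**
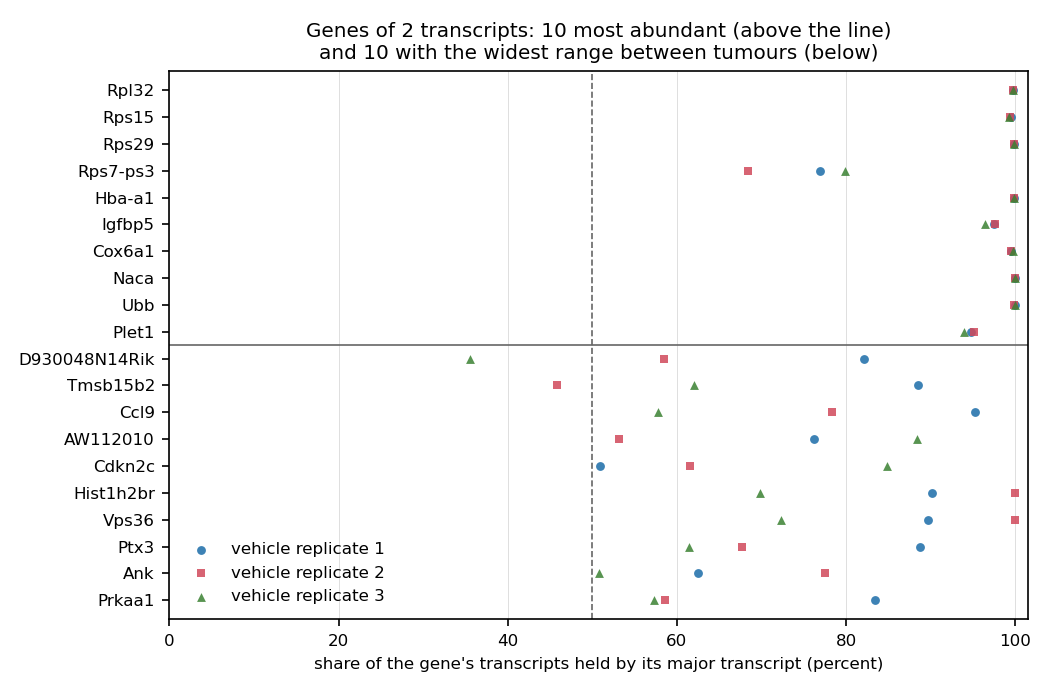
Share of the major transcript, in percent, for 20 genes of 2 transcripts, as points for the 3 vehicle tumours: the 10 most abundant above the line, the 10 with the widest range below. Above the line all but Rps7-ps3 are at 94.0% or more, and below it the shares run from 35.5% to 100%.

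Between tumours most genes varied little. Among 7731 nuclear protein-coding genes with a mean of at least 10 TPM, the median SD of log2(TPM + 1) was 0.28 and the median highest-to-lowest ratio 1.44. The median coefficient of variation was 19.8%, against 2.06% from read counting alone at the median of 2352 reads per gene. A ratio over 2 was seen for 1241 genes (16.1%), over 4 for 273 genes (3.53%) and over 16 for 15 genes. With all gene rows included, 387 of 8148 rows (4.75%) were over 4-fold, among them 91 of 99 short noncoding and ribosomal RNA rows. That count of 387 was 112 without tumour 2, 249 without tumour 3 and 262 without tumour 1. The median SD over all rows was 0.18 without tumour 2 in place of 0.28. A range over 2 tumours cannot be wider than over 3, and an SD tends to be smaller. The values with a tumour left out are thus not like for like with those over 3. Among the 273 genes the highest tumour was tumour 1 for 121, tumour 2 for 113 and tumour 3 for 39, and the lowest was tumour 1 for 31, tumour 2 for 114 and tumour 3 for 128. The ratios are in deposited TPM. On that scale 61.6% of the 11651 genes at 1 TPM in every tumour were lowest in tumour 2 (40.9% on the nuclear scale).

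Single genes stood out most in tumour 3. Prol1, which encodes a secreted proline-rich protein (chr5:88317312-88328814), was at 348 TPM there against 5.86 and 4.31 TPM. Gfra4, a receptor of the GDNF family, had 51.4 against 0.45 and 1.46 TPM, and Vamp1, a vesicle fusion protein, 148 against 12.6 and 10.7 TPM. Tbx15, a developmental transcription factor, was at 92.3 against 1.98 and 14.4 TPM. Cdkn2a, the locus of the tumour suppressors p16Ink4a and p19Arf (chr4:89274471-89294653, minus strand), stood at 61.3 against 1.96 and 3.78 TPM, from 1352 against 43 and 94 reads. Its 2 transcripts begin 12461 bases apart; the upstream start, which is that of p19Arf, held 77.7%, 88.6% and 64.4% of its transcripts. These shares were singled out after they were seen, and those of tumours 1 and 2 rest on few reads. All 3 were solved from a small difference in length, between transcripts of 895 and 852 bases. In all, 71 genes (0.918%) were over 2-fold higher in tumour 3 than in both others.

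Tumour 2 led 121 genes (1.57%) by over 2-fold. Beside the milk and fat genes named above these included Retnla, a secreted product of alternatively activated macrophages and of fat, at 136 against 18.8 and 7.60 TPM, the chemokine Ccl6 at 96.8 against 13.6 and 9.75 TPM, and the lectin Cd209f at 27.6 against 3.95 and 2.17 TPM. Lars2, the mitochondrial leucyl-tRNA synthetase, was at 611 against 36.1 and 53.3 TPM. The ribosomal RNA row of tumour 2 moved with it, at 34205 against 1063 and 1725 TPM, and its part in the Lars2 value was not tested.

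Tumour 1 led 175 genes (2.26%) by over 2-fold. Alkal2, a ligand of the ALK receptor kinase, was at 106 against 4.1 and 9.97 TPM, and the sorting nexin Snx22 at 50.4 against 4.44 and 2.38 TPM. The inducible heat shock genes Hspa1b and Hspa1a, near-identical copies whose reads may be split between them, had 467 against 62.3 and 77.8 TPM and 118 against 15.4 and 19.4 TPM. The constitutive Hspa8 was even beside them (1214, 1114 and 1198 TPM). Itgb4, integrin beta 4 of hemidesmosomes, was at 211 against 29.5 and 34.5 TPM and the helicase gene Helz at 78.0 against 5.58 and 8.78 TPM.

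Many of the genes high in tumour 1 lay side by side on chromosome 11. This was noticed in the values and then described with a scan chosen for it, so it has no test. On the nuclear scale, 10442 genes with a mean of at least 5 were put in chromosome order, and in each window of 15 neighbours the median log2 difference between a tumour and the higher of the other two was taken (for lower windows, the lower). Of 10162 windows 83 (0.817%) were over 2-fold higher in tumour 1, all of them on chromosome 11. There were 0 (0%) windows over 2-fold lower in tumour 1, and 0 (0%) in either direction in tumours 2 and 3.

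The windows joined into 2 stretches in the GRCm38 genome. The first, chr11:103132429-107693826, runs from Hexim2 to Helz over 4.56 Mb and holds 41 of the genes, with a median log2 difference of 1.44, or 2.71-fold; all 41 were higher in tumour 1 and 33 by over 2-fold. The second, chr11:114668524-116335399, runs from Rpl38 to Foxj1 over 1.67 Mb and holds 47 genes, with a median of 1.69, or 3.22-fold, and 46 of 47 over 2-fold. The 714 genes before the first stretch had a median of -0.19, the 14 between the stretches -0.29 and the 94 after the second -0.33. These medians set tumour 1 against the higher of the other 2, and so tend below 0 where tumours are alike. Against tumours 2 and 3 singly, the medians were -0.03 and 0.03 before the first stretch. They were 0.04 and -0.24 between the stretches and 0.16 and -0.24 after the second.

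Most edges were sharp from gene to gene. Hexim1, an inhibitor of transcription elongation, had 48.8, 40.2 and 72.6 TPM, and its neighbour Hexim2, the first gene of the first stretch, 16.3, 1.88 and 4.67 TPM. At the far end Foxj1, the factor of motile cilia, had 10.9, 1.05 and 0.39 TPM, and the next gene, Ubald2, 105, 94.2 and 88.7 TPM. Cdc42ep4, just before Rpl38, had a log2 difference of 0.13. At the inner edge of the first stretch, Prkca, a protein kinase C next to Helz, was still at 40.8, 17.4 and 18.4 TPM, a log2 difference of 0.92, and the gene after it, Gna13, at 16.5, 15.2 and 20.4 TPM. Inside lay Rpl38 and H3f3b, described above, and further abundant genes such as Ddx5, an RNA helicase (1969.96, 418 and 783 TPM), Atp5h, an ATP synthase subunit (2256, 578 and 801 TPM), Slc9a3r1, a scaffold of the apical membrane (1060, 119.6 and 193 TPM), the ubiquitin-like modifier gene Sumo2 (1529, 462 and 701 TPM) and Grb2, the adaptor that links receptors to Ras (139, 33.2 and 39.7 TPM). The smallest differences inside were for Pecam1, an endothelial and leukocyte adhesion gene (5.81, 4.14 and 2.27 TPM), Mrc2, a collagen receptor of stromal cells (8.51, 6.50 and 1.03 TPM), Myl4, a muscle myosin light chain (5.19, 2.43 and 3.75 TPM), and Cd300c2, a myeloid receptor (6.38, 6.20 and 2.60 TPM). These genes were picked after their values were seen. Others known from blood cells or vessels stood higher in tumour 1, such as the integrin gene Itgb3 (35.5, 7.52 and 6.33 TPM) and Unc13d, of cytotoxic granules (33.3, 2.29 and 5.51 TPM). Of the 175 genes led by tumour 1, 73 (41.7%) lay in the stretches, which hold 0.970% of the 7731 genes; the same values chose the stretches, so this is a description.

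**Figure D5:**
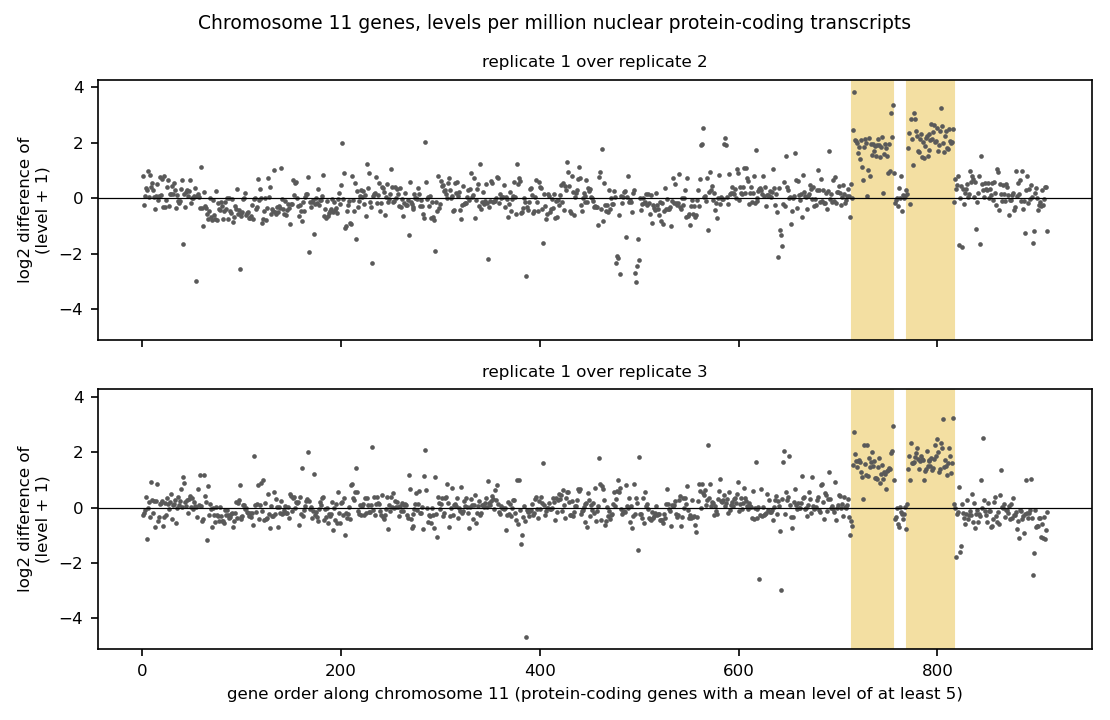
Log2 difference of nuclear-scale level plus 1 between tumour 1 and tumour 2 (top) and tumour 1 and tumour 3 (bottom) for 910 genes in their order along chromosome 11; shading marks the 2 stretches. Points in the stretches lie mostly above 1, and those outside scatter around 0.

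The evenest genes in deposited TPM, at a mean of 50 or more, were Fam89b (54.8, 54.6 and 55.1 TPM), the tropomyosin gene Tpm4 (137.7, 138.9 and 139.7 TPM), the respiratory complex I subunit Ndufb5 (177.9, 180.3 and 180.4 TPM) and the proteasome subunit Psmb7 (166, 167 and 164 TPM). The other six were Rps13, Cox7a2l, Mkrn1, Atp5k, Rpl22 and 1810009A15Rik, all within 1.03-fold. Their evenness belongs to that scale: on the nuclear scale Fam89b stood at 67.8, 82.4 and 73.4, with tumour 2 highest.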

How the data were processed

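Gene-level tables of the 3 vehicle libraries were used. Per the submitters' processing notes, reads were checked with FastQC 0.11.9, trimmed with cutadapt 3.5, aligned with STAR 2.7.9a to GRCm38 and quantified with RSEM 1.3.1; which setting or annotation release went with each is not given in the sources used here. The authors deposited, for each gene, an expected count (reads shared among genes by estimate, not always whole), a TPM and an abundance-weighted transcript length and effective length; these lengths were read as given. GENCODE mouse release 21 supplied names, positions and biotypes for 55227 of 55487 rows.

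From these, levels were read as deposited TPM; spread is the SD of log2(TPM + 1) over 3 tumours, with no low-value filter except the mean TPM stated. The nuclear scale, added after seeing the data, rescales nuclear protein-coding rows to the total of a TPM column. Ratios use a pseudocount of 1. The share of a transcript was solved from the deposited length and checked on simulated data. Shares of reads cover counting error only. Python 3.11.15, pandas 2.3.3, numpy 2.4.6, scipy 1.17.1, biopython 1.88 and matplotlib 3.10.9 were used. RSEM shares reads among copies by estimate, and whether strand was used is not given in the sources used here, so overlapping genes may share reads.

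The members, gene lists (24 lineage, 60 family and 5 programme lists) and rules were chosen with earlier results of these data known. Named were the 25 nuclear protein-coding genes of highest mean TPM, list members, the 20 with the largest SD, the 8 leading each tumour, the 10 evenest at a mean TPM of 50, and, of genes with 2 transcripts, the 10 most abundant, the 10 widest and list members; exceptions are marked. Alternatives tried were other TPM and count thresholds, scales, a pseudocount of 0.1 and leaving out each tumour. The agonist-treated samples were not used.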

Additional observations from a re-analysis of the deposited data

How the results depend on the processing

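The share of the 20 most abundant rows, 22.5% of TPM, was 17.6% without mitochondrially encoded and ribosomal RNA rows, 13.8% of expected counts and 15.04% on the nuclear scale, and 22.0% to 24.3% with 1 tumour left out. The count of genes with an over 4-fold range, 387, was 754 with a mean TPM of at least 1. It was also 754 with any read, since a range of 4 on TPM plus 1 needs a mean above 1. With 1 tumour left out it was 112 to 262, lowest without tumour 2, but a range over fewer tumours cannot be wider. The median SD of log2 level, 0.28, was 0.20 with any read, as rows near 0 entered, and 0.18 to 0.28 with 1 tumour left out. Genes with a dominant transcript numbered 906 in place of 478 with a mean TPM of at least 1, as more genes entered. The other settings kept the counts of detected genes (11400 to 15877), of families with a constant leader (44 to 52) and of dominant transcripts (478 to 535) within 1.5 times. With 1 tumour left out these counts were 12934 to 13308, 49 to 52 and 488 to 489. Of 122 named levels, 38 moved by over 1 SD without mitochondrial and ribosomal RNA rows and 0 with median-of-ratios factors. Depth limits mainly genes under 1 TPM. No paired analysis was possible because no result comes from a test between groups.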

Other observations

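The long noncoding RNAs Malat1 and Neat1 were lowest in tumour 2, with Malat1 at 1163, 420 and 1307 TPM and Neat1, the scaffold of nuclear paraspeckles, at 882, 459.8 and 1217 TPM in tumours 1, 2 and 3. Xist, the RNA of the inactive X chromosome, was at 228, 138 and 259.5 TPM, and none of the 4 Y-linked genes rose above 0.02 TPM. Rn7s1, the RNA of the signal recognition particle, stood at 2204, 19560.3 and 816.2 TPM and Rn7sk at 46.5, 1965 and 66.1 TPM, both highest in tumour 2 with the snRNA class, which took 8.75% of its TPM from 17415 reads against 65 and 220 reads. Salivary and exocrine gland genes were low, with Dcpp1, a secreted gland protein, at 9.27, 35.7 and 3.15 TPM, and 6 of 7 skin keratinocyte genes were under 1 TPM in every tumour.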
